A study of Mus musculus with 12 samples.

Results

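The adhesion molecules that hold circulating leukocytes on the vessel wall were examined in mouse kidney, and they are 7 of the 24421 gene symbols in the deposited tables. The set holds genes of immunoglobulin-type adhesion molecules (*Icam1*, *Icam2*, *Vcam1* and the mucosal addressin gene *Madcam1*), the 2 selectins of the vessel wall (*Sele* and *Selp*) and the selectin ligand gene *Selplg*. They were chosen by symbol, and each has 1 transcript in the tables. RNA-seq libraries of whole kidneys came from 12 male C57BL/6 mice at 6 weeks of age, in 4 groups of 3. WT baseline and Tet2-/- baseline mice had no operation. WT IR and Tet2-/- IR mice had the pedicle of the right kidney clamped for 60 min, the left kidney removed, and tissue taken 24 h later (ischemia-reperfusion, IR). *Tet2* encodes a dioxygenase that oxidizes 5-methylcytosine in DNA, and the Tet2-/- mice were bred from heterozygous pairs of C57BL/6J background, so any difference between genotypes can arise in any cell of the mouse, leukocytes included. No sham-operated library was analysed here, so a difference between IR and baseline includes the surgery and the loss of the other kidney.

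Leukocytes leave the blood in steps. Selectins on endothelium and platelets catch sugar-decorated ligands such as PSGL-1, the product of *Selplg*, and slow the cell to a roll. Integrins on the leukocyte then bind ICAM-1, ICAM-2, VCAM-1 or MAdCAM-1 and stop it. Inflammatory cytokines are known to raise *Icam1*, *Vcam1* and *Sele* transcription in endothelium, ICAM-2 is made by resting endothelium, and P-selectin is stored in the granules of platelets and endothelial cells. In the kidney, ICAM-1 is also made by tubule cells after injury.

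Some properties of the libraries bear on these values. The libraries held 51007366 to 107969888 expected counts on 1 transcript per gene. The *Tet2* level was 9.15, 6.25 and 7.33 FPKM (fragments per kilobase of transcript, scaled to the mapped reads of the library) in WT baseline kidneys and 9.25, 16.6 and 10.3 in those labelled Tet2-/- baseline, so the transcript was not lower in the mutant baseline libraries (log2 fold change 0.76, SE 0.24, adjusted p = 0.321 by edgeR). After IR it was 9.34, 3.97 and 3.86 FPKM in WT and 2.64, 3.20 and 1.76 in kidneys labelled Tet2-/- (log2 fold change −1.28, SE 0.36, adjusted p = 0.069 by edgeR). Because the baseline values go against the genotype label at the level of the transcript, the groups are called by their labels throughout, and every genotype direction below rests on those labels. The fat cell gene *Adipoq* stood at 3.01 and 15.6 FPKM in WT baseline replicates 2 and 3 and at 10.0 in Tet2-/- IR replicate 3, against 0 to 0.273 in the 9 others. WT IR replicate 1 had a summed level of 8 injured tubule genes (such as *Havcr1* and *Lcn2*) of 1706 FPKM, against 7943 and 5954 in its group and 12085 to 26144 in the Tet2-/- IR kidneys. Endothelial identity was present everywhere: all 13 endothelial markers, *Pecam1* and *Cdh5* among them, were above 0 in every library. Their summed level ran from 112 to 278 FPKM in WT baseline, 119 to 172 in Tet2-/- baseline, 28.2 to 159 in WT IR and 90.1 to 223 in Tet2-/- IR kidneys.

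The members lie on 6 chromosomes. On mm9, the build of the files, *Icam1* (NM_010493) spans chr9:20820404-20833240 on the plus strand, *Icam2* (NM_010494) chr11:106238970-106243955 on the minus strand and *Vcam1* (NM_011693) chr3:115812938-115832606 on the minus strand. *Sele* (NM_011345, chr1:165978365-165987808) and *Selp* (NM_011347, chr1:166045395-166080157) both lie on the plus strand, 57.6 kb apart. *Selplg* (NM_009151) spans chr5:114267807-114280510 on the minus strand and *Madcam1* (NM_013591) chr10:79127319-79131281 on the plus strand.

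Promoter sequences are shown for the 3 members with a called change, *Icam1*, *Sele* and *Selp*, because the selectin pair and *Icam1* rose in the same kidneys. RefSeq promoters on GRCm38.p6, from 250 bases before to 50 bases after the annotated start, were matched by symbol for 4 of the 7 members. Capitals mark matches on either strand to the kappaB-type motif GGNNNTTCC or the AP-1-type motif TGANTCA, and the motifs did not overlap.
Icam1, chr9:21015690-21015989, plus strand: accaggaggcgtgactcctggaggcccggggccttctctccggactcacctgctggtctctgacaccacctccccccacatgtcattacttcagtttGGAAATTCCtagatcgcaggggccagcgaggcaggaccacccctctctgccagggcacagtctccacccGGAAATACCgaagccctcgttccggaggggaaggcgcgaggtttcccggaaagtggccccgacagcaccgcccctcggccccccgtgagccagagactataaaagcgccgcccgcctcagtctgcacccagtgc
Sele, chr1:164047984-164048283, plus strand: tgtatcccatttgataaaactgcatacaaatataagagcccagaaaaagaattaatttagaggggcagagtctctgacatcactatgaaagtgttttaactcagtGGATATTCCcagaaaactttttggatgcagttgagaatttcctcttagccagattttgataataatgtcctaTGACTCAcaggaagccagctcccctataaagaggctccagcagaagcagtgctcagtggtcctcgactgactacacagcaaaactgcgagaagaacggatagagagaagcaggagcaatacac
Selp, chr1:164115014-164115313, plus strand: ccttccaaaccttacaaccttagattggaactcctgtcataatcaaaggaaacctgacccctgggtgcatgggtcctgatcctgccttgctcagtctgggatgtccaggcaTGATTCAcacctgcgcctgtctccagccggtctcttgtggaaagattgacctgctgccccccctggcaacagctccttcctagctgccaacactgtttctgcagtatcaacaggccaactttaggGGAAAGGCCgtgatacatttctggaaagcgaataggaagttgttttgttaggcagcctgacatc
The *Icam1* promoter held kappaB-type matches beginning 153 and 84 bases before the start and no AP-1-type match. *Sele* held a kappaB-type match at 145 bases and an AP-1-type match at 73 bases before the start. *Selp* held an AP-1-type match at 139 bases and a kappaB-type match at 14 bases before it. The promoter of *Madcam1*, which was not called, also held kappaB-type matches, at 83 and 70 bases before the start. Of 32851 RefSeq promoters of this length, 18.5% hold the kappaB-type motif and 7.81% the AP-1-type motif. A match of letters is a description of the sequence, and binding was not measured.

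The immunoglobulin-type molecules made up most of the adhesion transcript in every group, and the selectins were rare. In WT baseline kidneys the mean level was 4.56 FPKM for *Icam2*, 4.39 for *Icam1*, 1.18 for *Vcam1*, 0.682 for *Selplg*, 0.0793 for *Sele*, 0.0113 for *Selp* and 0.00833 for *Madcam1* (n = 3). In that order the replicate ranges of *Icam2* and *Icam1* overlapped, as did those of *Vcam1* and *Selplg* and those of *Selp* and *Madcam1*, and the other neighbours were separate. After IR, *Icam1* stood alone at the top in both genotypes, with ranges above those of *Icam2*. The order of the selectins also differed between groups. *Sele* was above *Selp* without overlap in WT baseline kidneys, whereas their ranges overlapped in the 3 other groups.

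**Figure D1:**
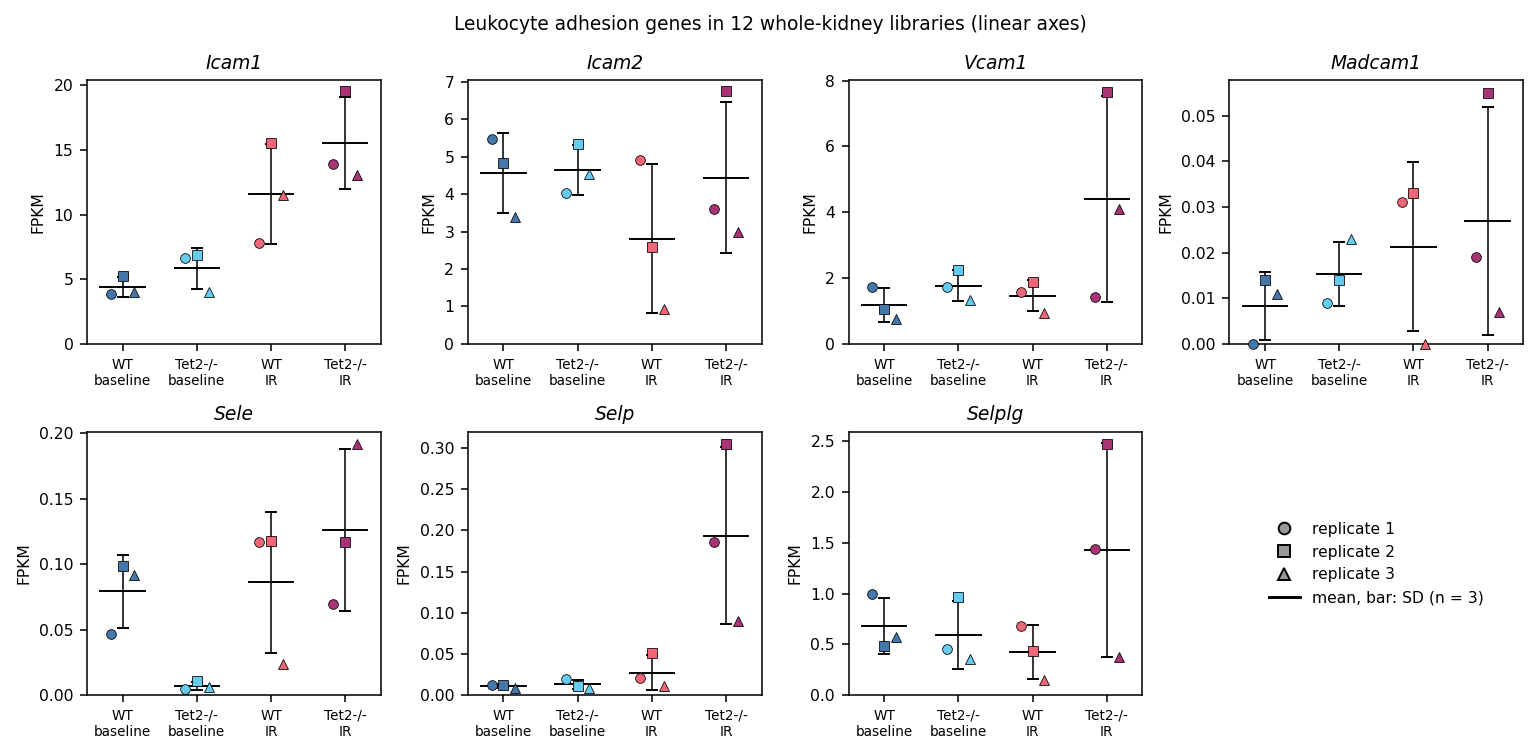
Level of each adhesion gene in FPKM (vertical axis, linear, a separate scale per panel) in the 12 kidneys, by group; each symbol is 1 library, with its shape giving the replicate number, and the line and bar are the group mean and SD. *Icam1* is higher in all 6 IR kidneys than in the baseline kidneys of the same genotype, *Sele* is lowest in the 3 Tet2-/- baseline kidneys, and *Selp* is highest in the 3 Tet2-/- IR kidneys.

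Which adhesion genes moved with IR, and whether they did so in both genotypes, was asked with edgeR's quasi-likelihood test on the counts. A gene was called where the Benjamini-Hochberg adjusted p, taken over all genes, was under 0.05 and the log2 fold change was over 1 in size. In WT kidneys IR raised 1 of 5 tested members, *Icam1*, where 2.35% of 16015 genes were called and 1.46% were called higher. In kidneys labelled Tet2-/-, IR raised 3 of 6 tested members, *Icam1*, *Sele* and *Selp*, where 24.3% of 16359 genes were called and 12.7% were called higher. Between genotypes at baseline none of 5 tested members was called by edgeR's quasi-likelihood test, with 0.0124% of 16086 genes called. *Sele* alone had an unadjusted p under 0.05 there, as did 11.8% of genes, and it was called by DESeq2 and by edgeR's exact test. After IR, 1 of 6 tested members differed between genotypes, *Selp*, where 6.15% of 16186 genes were called and 2.3% were called higher. The interaction was fitted to the 12 libraries together and needed only an adjusted p under 0.05. There the IR effect differed between genotypes for 1 of 6 tested members, *Sele*, where 9.18% of 16741 genes were called and 3.79% were called higher. *Madcam1* never passed the filter on low counts, and *Selp* did not pass it in the WT IR comparison or at baseline. *Sele* and *Selp* had 5.5 or fewer counts in each Tet2-/- baseline library. With IR in kidneys labelled Tet2-/- both passed the filter through the IR group, where they were high. The IR comparisons share their libraries with the genotype comparisons, so the calls are not independent of each other. In bulk tissue, fewer cells of a type and less RNA per cell cannot be told apart.

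*Icam1*, the inducible ligand of the leukocyte integrins LFA-1 and Mac-1, rose with IR in both genotypes. Its level was 3.88, 5.26 and 4.02 FPKM in WT baseline, 7.78, 15.5 and 11.5 in WT IR, 6.62, 6.88 and 4.03 in Tet2-/- baseline and 13.9, 19.6 and 13.1 in Tet2-/- IR kidneys. The IR kidneys lay above the baseline kidneys without overlap in each genotype, as did 18.9% of genes tested in WT and 40.5% in kidneys labelled Tet2-/-, and the 2 genotypes overlapped at each stage. The log2 fold change with IR was 1.35 (SE 0.26, adjusted p = 0.0471 by edgeR) in WT and 1.14 (SE 0.22, adjusted p = 0.00492 by edgeR) in kidneys labelled Tet2-/-. The difference between these effects was −0.17 on the log2 scale (SE 0.36, adjusted p = 0.809 by edgeR), and it turned to 0.06 without WT IR replicate 2 and to 0.09 or 0.07 with limma. The genotype difference was 0.50 (SE 0.23, adjusted p = 0.448) at baseline and 0.31 (SE 0.25, adjusted p = 0.456) after IR by edgeR. The WT call sat at the threshold. Of 18 alternatives 10 kept the call, DESeq2 and the exact test among them, and 8 lost it. The adjusted p by edgeR was 0.165, 0.0857 and 0.112 without WT baseline replicate 1, 2 or 3, and 0.129 and 0.133 without WT IR replicate 2 or 3. Without the least injured library, WT IR replicate 1, the fold change was 1.58 and the adjusted p 0.0140 by edgeR. Without WT baseline replicates 2 and 3 the fold change was 1.51, with 1 WT baseline library left, so that group has no spread of its own. In kidneys labelled Tet2-/- the fold change was 0.94 without Tet2-/- baseline replicate 3 (adjusted p = 0.0107 by edgeR), which is under the fold threshold. Injured tubule genes rose in the same kidneys. Their summed level was 309 to 551 FPKM in WT baseline and 242 to 369 in Tet2-/- baseline kidneys, against the IR sums above. With IR, 6 of 8 rose in WT (median log2 fold change 4.14) and 8 of 8 in kidneys labelled Tet2-/- (median 5.97), where 1.46% and 12.7% of all genes were called higher. The part of injured tubule cells in the *Icam1* values was not tested.

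*Icam2*, the ICAM of resting endothelium, was not called in any comparison. It stood at 5.48, 4.82 and 3.38 FPKM in WT baseline, 4.90, 2.58 and 0.941 in WT IR, 4.03, 5.34 and 4.54 in Tet2-/- baseline and 3.59, 6.74 and 2.99 in Tet2-/- IR kidneys. All these groups overlapped, and WT IR replicate 3 was the lowest of the 12. The log2 fold change with IR was −0.80 (SE 0.51, adjusted p = 0.399) in WT and −0.35 (SE 0.30, adjusted p = 0.373) in kidneys labelled Tet2-/- by edgeR. Set against the summed endothelial markers, *Icam2* did not separate IR from baseline kidneys in either genotype. It was 1.73 to 3.03% of that sum in WT baseline, 3.11 to 3.38% in Tet2-/- baseline, 2.51 to 3.33% in WT IR and 2.24 to 3.31% in Tet2-/- IR kidneys. The Tet2-/- baseline shares lay above the WT baseline shares without overlap. WT IR replicate 3, lowest in *Icam2*, also had the lowest endothelial sum, 28.2 FPKM, and the highest of these shares in its group.

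The balance between the ICAM genes shifted toward *Icam1* after IR. The ratio of *Icam1* to *Icam2* FPKM was 0.709, 1.09 and 1.19 in WT baseline and 1.64, 1.29 and 0.886 in Tet2-/- baseline kidneys. After IR it was 1.59, 6.01 and 12.3 in WT and 3.86, 2.90 and 4.38 in kidneys labelled Tet2-/-. The IR ratios exceeded those of the baseline kidneys of the same genotype in 3 of 3 libraries each, whereas the genotypes overlapped at both stages. Relative to the endothelial sum, *Icam1* was 1.89 to 3.60% in WT baseline, 2.82 to 5.55% in Tet2-/- baseline, 4.89 to 40.9% in WT IR and 8.67 to 14.5% in Tet2-/- IR kidneys. Neither share was tested, and 3 kidneys against 3 cannot give a p under 0.1 in an exact permutation test (two-sided).

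**Figure D2:**
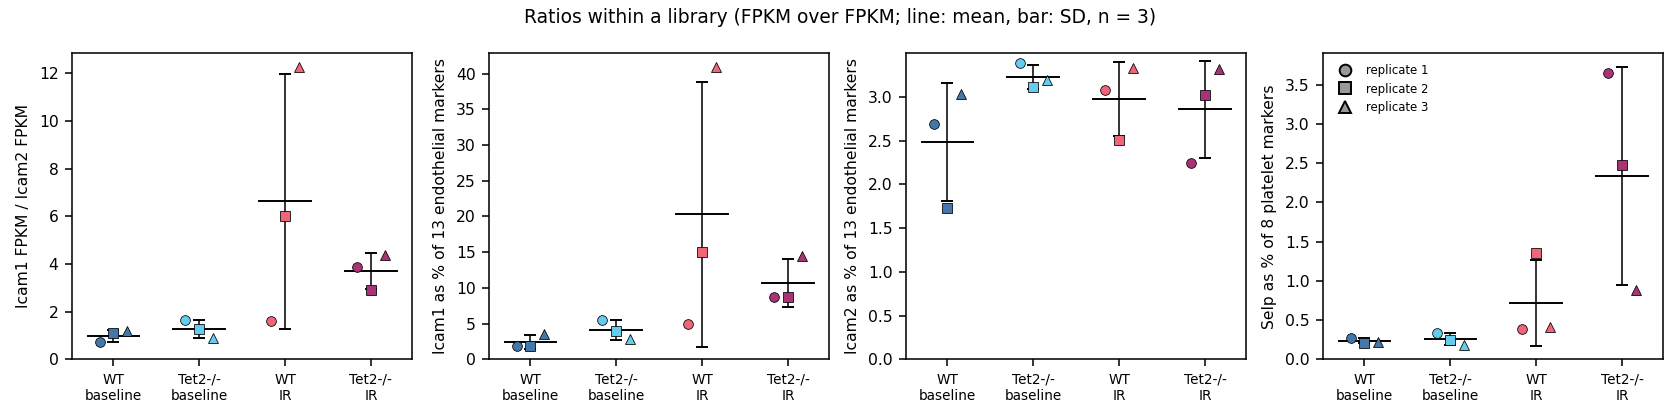
Ratios in each library (symbols, shape by replicate number) and group means (lines, with bars of 1 SD): *Icam1* over *Icam2*, *Icam1* as a percentage of the summed FPKM of 13 endothelial markers, *Icam2* as a percentage of the same sum, and *Selp* as a percentage of the summed platelet markers, on linear axes from 0. *Icam2* stays between 1.73 and 3.38% in all 12 kidneys, while *Icam1* over *Icam2* reaches 12.3 in WT IR replicate 3.

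*Vcam1*, the ligand of the integrin VLA-4, was high in FPKM in only some of the injured kidneys. Its level was 1.74, 1.05 and 0.747 FPKM in WT baseline, 1.59, 1.87 and 0.940 in WT IR, 1.74, 2.25 and 1.33 in Tet2-/- baseline and 1.43, 7.66 and 4.11 in Tet2-/- IR kidneys. Tet2-/- IR replicates 2 and 3 were above all 10 other libraries, and replicate 1 lay within the range of the other groups. The log2 fold change with IR was 0.24 (SE 0.36, adjusted p = 0.738) in WT and 1.03 (SE 0.51, adjusted p = 0.139) in kidneys labelled Tet2-/- by edgeR. The genotype difference was 0.68 (SE 0.33, adjusted p = 0.464) at baseline and 1.48 (SE 0.54, adjusted p = 0.125) after IR by edgeR. A single library decided these calls. Without Tet2-/- IR replicate 1 the IR effect in kidneys labelled Tet2-/- was 1.43 (adjusted p = 0.0110) and the genotype difference after IR 1.90 (adjusted p = 0.0454) by edgeR. Without Tet2-/- IR replicate 2 they were 0.47 and 0.91 (adjusted p = 0.439 and 0.299). DESeq2 called the genotype difference after IR with all libraries, at 1.47 (adjusted p = 0.0295).

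*Sele*, which encodes the cytokine-inducible selectin of endothelium, had few reads, and its lowest group was the Tet2-/- baseline kidneys. The counts were 12, 28.5 and 25 in WT baseline, 1, 5 and 1.5 in Tet2-/- baseline, 23.5, 29.5 and 5.5 in WT IR and 22.5, 43.5 and 52.5 in Tet2-/- IR kidneys. In FPKM these were 0.047, 0.099 and 0.092 in WT baseline, 0.005, 0.011 and 0.006 in Tet2-/- baseline, 0.117, 0.118 and 0.024 in WT IR and 0.070, 0.117 and 0.192 in Tet2-/- IR. The Tet2-/- baseline kidneys lay below all 9 others, and those 9 overlapped across their groups. IR raised *Sele* in kidneys labelled Tet2-/-, with a log2 fold change of 3.61 (SE 0.62, adjusted p = 0.00319 by edgeR), and gave 0.06 (SE 0.58, adjusted p = 0.960 by edgeR) in WT. In kidneys labelled Tet2-/- the gene passed the low count filter through the IR group, where it was high. This difference in response passed the interaction test at 3.58 on the log2 scale (SE 0.89, adjusted p = 0.0326 by edgeR).

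Most of the *Sele* interaction lay in the baseline kidneys. The genotype difference at baseline was −3.09 (SE 0.53, unadjusted p = 0.00053, adjusted p = 0.206 by edgeR), and the Tet2-/- baseline kidneys were lower without overlap, as were 16.5% of genes tested. DESeq2 called it at −3.17 (adjusted p = 0.00981) and edgeR's exact test at −3.08 (adjusted p = 0.000326). After IR the genotypes differed by 0.46 (SE 0.64, adjusted p = 0.674 by edgeR). Without WT baseline replicates 2 and 3, those with *Adipoq* at 3.01 and 15.6 FPKM, the baseline difference was −2.34 and the interaction 2.80 by edgeR. That leaves 1 WT baseline library, with *Adipoq* at 0.167 FPKM. The group then has no spread of its own, so no call is read from this fit. The interaction fold ran from 3.08 to 3.95 on the log2 scale with 1 library left out, and it lost its call by edgeR in 6 of 12 omissions, with an adjusted p of 0.0646 and 0.0635 without WT baseline replicate 2 or 3, 0.0744, 0.0629 and 0.0865 without Tet2-/- baseline replicate 1, 2 or 3, and 0.0557 without WT IR replicate 1. As a share of the endothelial sum, *Sele* was 0.0231 to 0.0824% in WT baseline and 0.00419 to 0.00639% in Tet2-/- baseline kidneys, which did not overlap either. This share was 0.0736 to 0.115% in WT IR kidneys, with overlap with WT baseline, and 0.0437 to 0.213% in Tet2-/- IR kidneys. The WT means were 0.0470% at baseline and 0.0911% after IR.

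*Selp*, which encodes the selectin of platelet and endothelial granules, was highest in the 3 Tet2-/- IR kidneys. The counts were 4, 4 and 3 in WT baseline, 5, 5.5 and 3 in Tet2-/- baseline, 5, 15 and 3 in WT IR and 70.5, 134.5 and 29 in Tet2-/- IR kidneys. In FPKM these were 0.013, 0.012 and 0.009 in WT baseline, 0.020, 0.011 and 0.009 in Tet2-/- baseline, 0.021, 0.051 and 0.011 in WT IR and 0.186, 0.305 and 0.090 in Tet2-/- IR. The 3 Tet2-/- IR kidneys lay above all 9 others, which overlapped across their groups. The log2 fold change with IR was 3.57 (SE 0.57, adjusted p = 0.00232 by edgeR) in kidneys labelled Tet2-/-, where *Selp* passed the low count filter through the IR group. With no filter on low counts it was 3.56 (SE 0.59, adjusted p = 0.00202 by edgeR) there and 1.17 (SE 0.70, adjusted p = 0.401 by edgeR) in WT. After IR, *Selp* was higher in kidneys labelled Tet2-/- than in WT by 2.67 (SE 0.65, adjusted p = 0.0475 by edgeR), without overlap, as were 22.0% of genes tested. *Selp* passed the low count filter here through the Tet2-/- IR group, and with no filter the adjusted p by edgeR was 0.04999, at the threshold, with a log2 fold change of 2.67. The interaction for *Selp* was 2.42 (SE 0.87, adjusted p = 0.103 by edgeR). So the difference between genotypes in the response to IR was not called for *Selp*, except when WT IR replicate 2 was left out (3.17, adjusted p = 0.0368 by edgeR).

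The genotype call of *Selp* after IR rested on each of several libraries. Its adjusted p by edgeR was 0.154 and 0.126 without WT IR replicate 1 or 3 and 0.108, 0.108 and 0.0528 without Tet2-/- IR replicate 1, 2 or 3, with log2 fold changes from 2.25 to 3.41 over all 6 omissions. The IR effect in kidneys labelled Tet2-/- kept its call in all 6 omissions, from 3.16 to 3.87. Platelets carry P-selectin, and their markers were read in the same kidneys. The summed level of 8 platelet markers was 5.10, 12.3 and 10.3 FPKM in Tet2-/- IR, against 5.45, 3.78 and 2.64 in WT IR and 4.04 to 5.85 at baseline, and 3 of 6 tested members of that list rose and 1 fell with IR in kidneys labelled Tet2-/-, where 12.7% of all genes were called higher and 24.3% in either direction. The sums overlapped between the IR groups. Between genotypes after IR, 1 of the 6 was higher and 1 lower, with 2.3% and 3.85% of all genes called higher and lower. In the interaction edgeR's quasi-likelihood test called none, 4 had an unadjusted p under 0.05 and DESeq2 called 2. At least 7 of the 8 platelet markers were above 0 in each library. *Selp* was 3.64, 2.48 and 0.878% of the platelet sum in Tet2-/- IR and 0.385, 1.35 and 0.416% in WT IR kidneys, so the groups overlapped on that scale. Against the endothelial sum it was 0.116, 0.137 and 0.0999% in Tet2-/- IR and 0.0132, 0.0496 and 0.0390% in WT IR kidneys, without overlap. The part of platelets in the *Selp* difference was not tested.

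**Figure D3:**
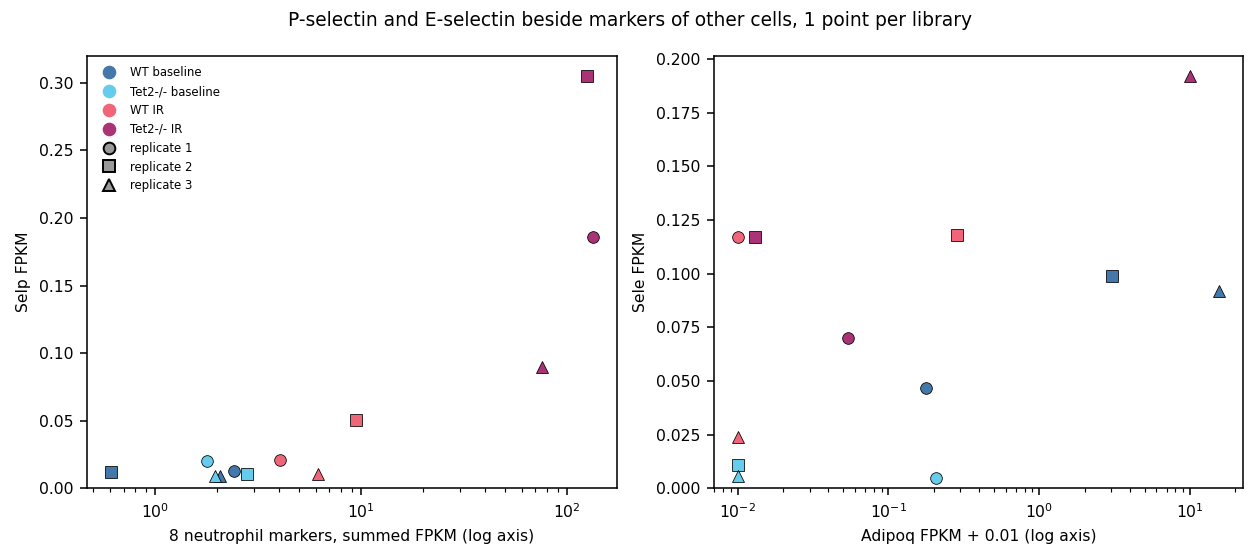
Level of *Selp* against the summed FPKM of 8 neutrophil markers, and level of *Sele* against the FPKM of *Adipoq* plus 0.01, in each of the 12 libraries (FPKM on linear vertical axes, horizontal axes on a log scale); colour gives the group and shape the replicate number. The 3 Tet2-/- IR kidneys have the highest *Selp* and the highest neutrophil sums, from 75.1 to 133 FPKM, and the 3 Tet2-/- baseline kidneys have the lowest *Sele*.

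*Selplg* encodes PSGL-1, the leukocyte ligand that all selectins of this set can bind. Its level was 0.992, 0.480 and 0.573 FPKM in WT baseline, 0.684, 0.439 and 0.152 in WT IR, 0.454, 0.969 and 0.353 in Tet2-/- baseline and 1.44, 2.47 and 0.374 in Tet2-/- IR kidneys. Tet2-/- IR replicates 1 and 2 were the highest of the 12, and replicate 3 lay among the lowest values of the other groups. The log2 fold change with IR was −0.78 (SE 0.53, adjusted p = 0.425) in WT and 0.97 (SE 0.64, adjusted p = 0.253) in kidneys labelled Tet2-/- by edgeR. The genotype difference after IR was 1.64 (SE 0.72, adjusted p = 0.184) and the interaction 1.78 (SE 0.91, adjusted p = 0.233) by edgeR. Without Tet2-/- IR replicate 3, the library with *Adipoq* at 10.0 FPKM, the IR effect in kidneys labelled Tet2-/- was 1.39 (adjusted p = 0.0440 by edgeR). The summed level of 8 pan-leukocyte markers ran in the same order in that group, at 38.4, 88.9 and 21.5 FPKM, with all 8 markers above 0 in every library. *Selplg* was 3.75, 2.77 and 1.74% of this sum in Tet2-/- IR and 1.97, 1.17 and 1.01% in WT IR kidneys, with overlap between the groups.

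*Madcam1*, the addressin of gut venules, was at the floor of detection. Its FPKM ran from 0 to 0.055 over the 12 libraries, with 0 in WT baseline replicate 1 and WT IR replicate 3, and 10 or fewer counts in every library. No difference was detectable at this depth.

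**Figure D4:**
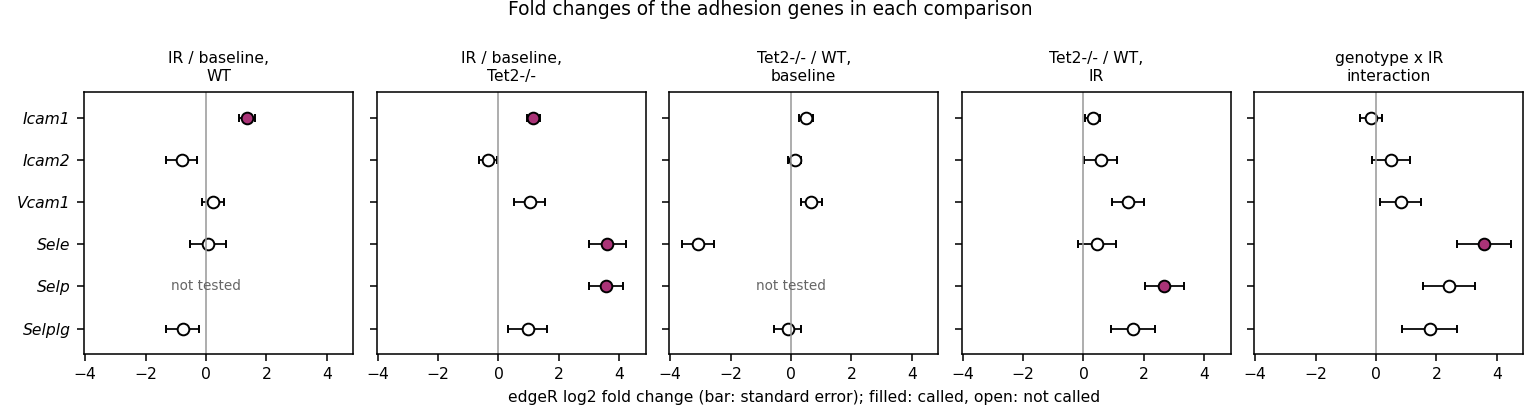
Log2 fold change (horizontal axis) of each tested adhesion gene in the 4 pairwise comparisons and the genotype by IR interaction, from edgeR; bars are 1 SE and filled symbols are calls. *Icam1* is filled in both IR comparisons, *Sele* and *Selp* are filled near 3.6 in kidneys labelled Tet2-/-, *Selp* after IR at 2.67 and *Sele* in the interaction at 3.58.

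The members did not follow one pattern across the libraries. The Pearson correlation of the log2 level over the 12 libraries, which share their groups and depth, was highest for *Icam1* and *Selp* (0.712) and lowest for *Icam1* and *Icam2* (−0.452). Among 12196 other genes, the level of *Icam1* was most like that of *Ydjc* (r = 0.973), *Nfkb2* (r = 0.965) and *Lad1* (r = 0.962). For *Icam2* the nearest genes were *Arhgef15* (r = 0.974), *Cd300lg* (r = 0.973) and *Rcsd1* (r = 0.969). *Selp* was nearest to *Chil3* (r = 0.981), *Ptger4* (r = 0.971) and *Clec4d* (r = 0.965), and *Selplg* to *Ctss* (r = 0.961), *Vsir* (r = 0.959) and *Coro1a* (r = 0.943). *Vcam1* and *Sele* had weaker nearest genes, *Ddah2* (r = 0.880) and *Bloc1s3* (r = 0.882). These values describe the 12 libraries, and no test was attached to them.

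The partners of these molecules were taken from 4 lists of other adhesion genes: leukocyte integrins, selectin ligand carriers and the enzymes that glycosylate them, other adhesion and transmigration molecules, and the ezrin-radixin-moesin proteins and integrin adaptors that tie receptors to the cytoskeleton. Of 55 genes listed, 54 were in the tables. In WT kidneys IR changed 0 of 49 tested genes by edgeR's quasi-likelihood test, where 2.35% of all genes were called. There 11 had an unadjusted p under 0.05, as did 22.7% of all genes. DESeq2 called 5 of the listed genes and 5.33% of all genes it fitted, and edgeR's exact test called 3 and 5.99%. Their median log2 fold change was −0.26, against −0.03 for all genes. With the replicate number as a block, 3 were called, all lower, with 6.16% of all genes called. Without WT IR replicate 1, 2 were called, both higher, with 3.36% of all genes called. In kidneys labelled Tet2-/-, IR raised 11 and lowered 4 of 49, with a median of 0.45 against 0.04 for all genes. These calls are 30.6% of the genes tested, near the 24.3% of all genes called in that comparison, so the counts describe the lists and do not set them apart from other genes.

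Among the leukocyte integrins, 2 of 8 tested rose and 1 fell with IR in kidneys labelled Tet2-/-, with 24.3% of all genes called. *Itgam*, the alpha chain of the ICAM-1 receptor Mac-1, stood at 0.145 ± 0.070 FPKM at baseline and 2.01 ± 1.35 after IR (mean ± SD of 3 kidneys), which is a log2 fold change of 3.50 (SE 0.66, adjusted p = 0.00473 by edgeR). *Itgb1* rose by 1.35 on the log2 scale, from a mean of 33.3 to 101 FPKM. *Itgae*, whose product binds E-cadherin, fell by 1.39, from a mean of 0.316 to 0.145 FPKM. The part of cells other than leukocytes in the *Itgb1* values was not tested. *Itgb2*, the shared beta chain of LFA-1 and Mac-1, had a log2 fold change of 1.54 (adjusted p = 0.0698), and *Itgal*, the LFA-1 alpha chain, 0.84 (adjusted p = 0.345) by edgeR. Neither was called.

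Among the ligand carriers and glycosylation enzymes, 4 of 14 rose and 2 fell, where 12.7% of all genes were called higher and 24.3% in either direction. *Cd44*, which encodes a hyaluronan receptor that can carry E-selectin ligands, went from 0.194 ± 0.078 to 4.59 ± 1.79 FPKM, a log2 fold change of 4.28 (SE 0.37, adjusted p = 0.000246 by edgeR). *Podxl*, a sialomucin of podocytes and endothelium, rose by 1.64 (adjusted p = 0.00297 by edgeR), and *Glg1* and *Fut4* rose by 1.20 and 1.08. The mean level of *Fut4* was low, at 0.201 and 0.518 FPKM before and after. *Gcnt1*, an enzyme that branches O-glycans for selectin binding, fell from 75.5 ± 4.63 to 20.3 ± 3.58 FPKM (log2 fold change −2.15, SE 0.19, adjusted p = 0.000246 by edgeR), and *Podxl2* fell by 1.71 (adjusted p = 0.00286 by edgeR). Markers of the proximal tubule fell in the same kidneys. Of 10 tested, 7 fell with IR in kidneys labelled Tet2-/- and 5 were lower there than in WT after IR, with median log2 fold changes of −1.62 and −1.66, where 11.6% and 3.85% of all genes were called lower. With IR in WT none of the 10 was called by edgeR's quasi-likelihood test (median −0.46), 4 had an unadjusted p under 0.05, and DESeq2 and the exact test called 1 each. *Kap* alone made up 89.7 to 97.3% of the summed level. The sum of the 9 others was 2336 to 3056 FPKM in Tet2-/- baseline, 622 to 859 in Tet2-/- IR, 2563 to 2739 in WT baseline and 1724 to 2298 in WT IR kidneys, with all 10 markers above 0 in every library. The part of the proximal tubule in the *Gcnt1* values was not tested.

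In the list of other adhesion molecules, 2 of 16 tested rose, *Mcam* by 1.26 and *Ncam1* by 1.15, and *Icam5* fell by 1.37, which is 18.8% of the list against 24.3% of all genes called. Their mean levels before and after were 3.37 and 9.69 FPKM for *Mcam*, 0.300 and 0.793 for *Ncam1* and 0.073 and 0.0333 for *Icam5*, near the floor. In the list of cytoskeletal linkers and adaptors, 3 of 11 rose and none fell, or 27.3% called. *Msn*, which encodes moesin, went from 20.04 ± 0.490 to 122 ± 3.67 FPKM (log2 fold change 2.36, SE 0.15, adjusted p = 9.47e-05 by edgeR). *Rap1b* and *Ezr* rose by 1.27 and 1.16.

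Between genotypes at baseline 0 of 49 of these genes were called by edgeR's quasi-likelihood test, 8 had an unadjusted p under 0.05, as did 11.8% of all genes, and DESeq2 called 2 and the exact test 1, with 1.74% and 1.83% of all genes called. After IR, 3 of 49 were higher in kidneys labelled Tet2-/- than in WT, *Itgam* by 2.89 (adjusted p = 0.0391), *Cd44* by 2.46 (adjusted p = 0.0176) and *Msn* by 1.30 (adjusted p = 0.0229), and *Gcnt1* was lower, at −1.57 (adjusted p = 0.0153), all by edgeR. That is 8.16% called, against 6.15% of all genes. DESeq2 called 8 of the listed genes, the exact test 7 and the fit of all 12 libraries 7, with 8.63%, 9.95% and 9.52% of all genes called. In the interaction 5 of 50 were called, *Cd44* at 2.68, *Msn* at 1.35, *Itgb1* at 1.06, *Rap1b* at 0.89 and *Gcnt1* at −1.55, which is 10.0% of the genes tested against 9.18% of all genes. The median over the 49 genes after IR was 0.49, against 0.04 for all genes. Leaving out WT IR replicate 1 took the count after IR from 4 to 2, and leaving out Tet2-/- IR replicate 1 took it to 1, while the share of all genes called went from 6.15% to 1.79% and 2.4%. The interaction count was 3 without WT baseline replicate 1 or WT IR replicate 1, 2 without Tet2-/- baseline replicate 1 or 3 or WT IR replicate 3, and 8 without WT IR replicate 2. Over all genes, 4.1 to 6.03% were called under the omissions that gave 2 or 3, and 2044 of 16980 genes without WT IR replicate 2.

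**Figure D5:**
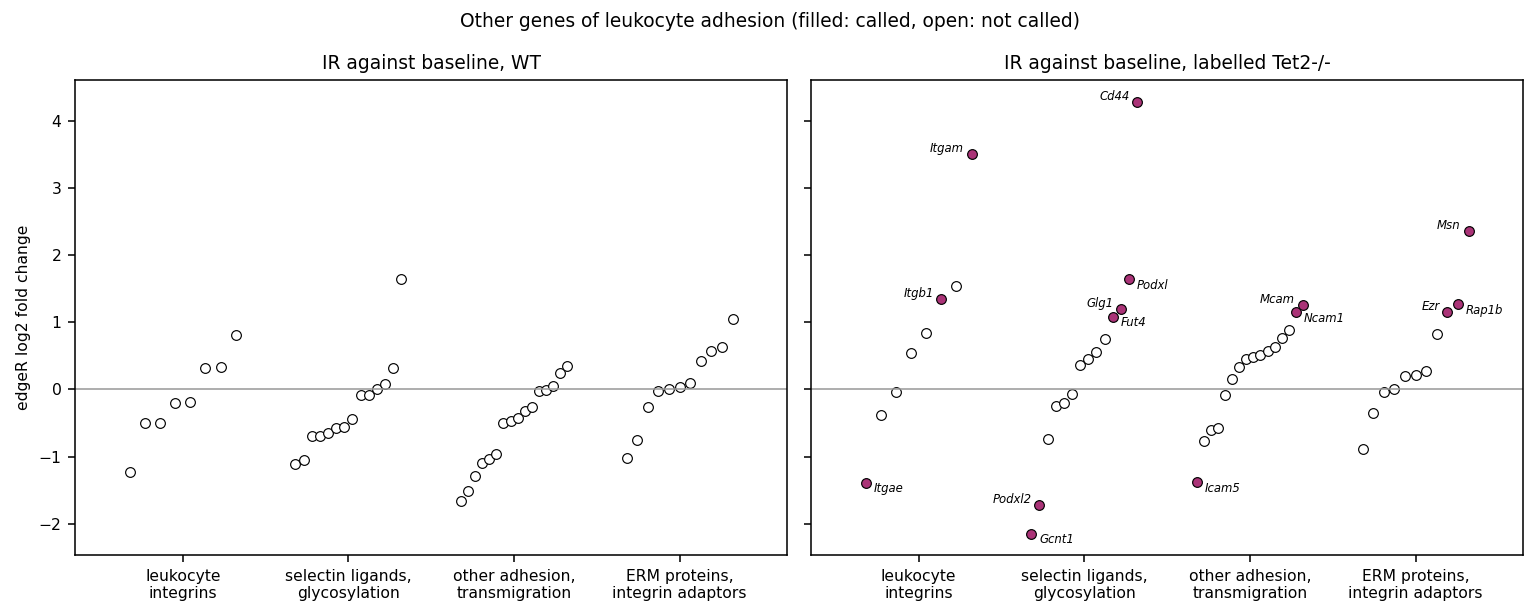
Log2 fold change (vertical axis) of the 49 other adhesion genes tested, by list and sorted within it, for IR against baseline in each genotype; filled and named points are calls by edgeR and open points are not called. Calls are absent in WT kidneys, and 11 higher and 4 lower calls stand in kidneys labelled Tet2-/-, from *Cd44* at 4.28 to *Gcnt1* at −2.15.

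Neutrophil genes were also highest in the Tet2-/- IR kidneys, where *Itgam* and *Selp* rose. The summed level of 8 neutrophil markers was 133, 125 and 75.1 FPKM in Tet2-/- IR, 4.03, 9.44 and 6.16 in WT IR, and 0.609 to 2.79 in the 6 baseline kidneys, with 6 to 8 of them above 0 in each library. All 7 tested markers of this list rose with IR in kidneys labelled Tet2-/-, and 6 of 7 were higher there than in WT after IR by edgeR, where 12.7% and 2.3% of all genes were called higher. Only 3 of the list passed the low count filter with IR in WT. The other tested ones entered these tests through the Tet2-/- IR group, where they were high. With IR in WT edgeR's quasi-likelihood test called none of the 3. There DESeq2 called 3 of the list and the exact test 1, with 5.33% and 5.99% of all genes called. The 3 Tet2-/- IR kidneys with the highest neutrophil sums were also the 3 with the highest *Selp*. Injured tubule sums were highest in these 3 kidneys too, at 12085 to 26144 FPKM against up to 7943 in WT IR. Within the group the order differed from that of the neutrophil sums, with *Selp* at 0.186, 0.305 and 0.09 FPKM in replicates 1, 2 and 3. None of the 13 endothelial markers was called in any comparison by edgeR's quasi-likelihood test, and 1 or 2 of them had an unadjusted p under 0.05 in each. The median log2 fold change of these 13 was −0.99 with IR in WT, −0.05 with IR in kidneys labelled Tet2-/-, −0.30 between genotypes at baseline, 0.88 between genotypes after IR and 0.98 in the interaction, against −0.03, 0.04, 0.00 and 0.04 for all genes in the pairwise comparisons and 0.10 in the interaction. DESeq2 called 1 of them in the WT IR comparison and in both genotype comparisons and none in the 2 others. The exact test called 1 in the WT IR comparison and 1 between genotypes after IR. The part of neutrophils and of endothelium in the adhesion gene values was not tested.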

How the data were processed

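Whole-kidney RNA from 12 mice gave 1 library each, and groups were taken from the labels. The authors used STAR for alignment to mm9 and HOMER for counting on RefSeq transcripts. The deposited files give FPKM and expected counts, which were left unnormalized by the authors. The expected counts run in steps of 0.5, with 38.7% of values not whole, and were rounded before each count test. For each symbol the transcript with the highest total was used. Low genes in FPKM rest on few reads, so selectin counts are given.

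Each comparison used its own 6 libraries in edgeR 4.0.16 (R 4.3.3), with TMM normalization, the default low count filter and the quasi-likelihood F test. All genes tested entered the Benjamini-Hochberg adjustment. The interaction used all 12. Limits of the study's methods (adjusted p under 0.05, absolute log2 fold change over 1) were applied to fitted fold changes, the interaction having no fold limit. The p-values measure the spread between mice. Alternatives were DESeq2 1.42.0, edgeR's exact test, other normalizations and filters, all deposited transcripts, limma 3.58.1 on log2(FPKM + 1) or log2(FPKM + 0.1), a replicate block and each library left out. WT baseline and IR libraries with the same number deviated together (correlations 0.379, 0.339 and 0.364), although they are different mice, so this pairing comes from the correlations alone.

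Ratios are of FPKM within a library. Likeness is Pearson's r of log2 levels over the 12 libraries, with the nearest 3 genes named. Of the other adhesion genes, up to 6 called genes per comparison with the largest fold change and a mean FPKM of at least 1 were to be named, and the remaining called genes and *Itgb2* and *Itgal* were named after their values were seen. Promoter sequences are RefSeq's on GRCm38.p6. 1 other adhesion gene is not reported here. The members and lists were chosen with earlier results of these data known. Plots came from matplotlib 3.10.9 (Python 3.11.15).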

Additional observations from a re-analysis of the deposited data

Results flagged for a closer look

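The response of *Sele* to IR differed between the genotypes by 3.58 on the log2 scale (SE 0.89, adjusted p = 0.0326, edgeR's quasi-likelihood test over 12 libraries), and the interaction test is what drew attention to it. The Tet2-/- baseline libraries held 1, 5 and 1.5 counts of *Sele*, the other 9 from 5.5 to 52.5. *Sele* was higher after IR in 3 of 3 kidneys labelled Tet2-/- without overlap, as were 40.5% of genes tested, whereas the WT groups overlapped. In WT 18.9% of genes tested were higher after IR without overlap. WT baseline replicates 2 and 3, which had the 2 highest *Sele* levels of their group, also had *Adipoq* at 3.01 and 15.6 FPKM, against 0 to 0.196 in the Tet2-/- baseline kidneys, and the part of this in the *Sele* difference was not tested.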

How the results depend on the processing

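Over 502 member fold changes recomputed under the alternatives, 453 kept their direction and their side of the limits, 28 lost a call, 7 gained one and 14 changed sign. None of those 14 was called before or after. Read depth limits *Sele*, *Selp* and *Madcam1*, which rest on few reads in most libraries, and a filter at a mean FPKM of 1 leaves *Sele* and *Selp* untested. The exact test has no form for the interaction. Where a cause is not given by the setting itself, the cause was not tested.

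Members called with IR in WT kidneys went from 1 to 0 with limma on log2(FPKM + 1) and log2(FPKM + 0.1), where 1.49% and 2.21% of all genes were called, against 2.35%. With 1 library left out they were 0 in the omissions that left 0.536 to 0.875% of all genes called. They were 1 without WT IR replicate 1, with 3.36% called. With IR in kidneys labelled Tet2-/- they went from 3 to 1 with a mean FPKM of at least 1 and with limma on log2(FPKM + 1). Of all genes, 23.0% and 14.0% were called there, against 24.3%. The members called ran from 2 to 4 with 1 library left out, with 19.4 to 25.5% of all genes called. Between genotypes at baseline they went from 0 to 1, *Sele*, with DESeq2 and the exact test, where 1.74% and 1.83% of all genes were called. After IR they went from 1 to 2 with DESeq2, where 8.63% of all genes were called. They went to 0 with library sizes alone (5.68%), a mean FPKM of at least 1 (6.96%) and limma on either scale (3.78 and 4.87%). With 1 library left out they ran from 0 to 1, with 1.79 to 5.71% of all genes called. In the interaction they went from 1 to 0 with a mean FPKM of at least 1, limma on either scale and without WT baseline replicates 2 and 3, and from 0 to 2 with 1 library left out. Of single calls, *Icam1* with IR in WT was 1.19 and 1.34 with limma (adjusted p = 0.0542 and 0.0642), and *Selp* after IR was 2.78 with library sizes alone (adjusted p = 0.0525 by edgeR).

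The other adhesion genes called with IR in WT went from 0 to 5 with DESeq2, 3 with the exact test and 2 in a fit of all 12 libraries, and from 0 to 2 with 1 library left out. Of all genes, 5.33, 5.99 and 3.77% were called under the first 3 of these, and 0.536 to 3.36% with 1 library left out. At baseline they went from 0 to 2 with DESeq2 and 1 with the exact test, with 1.74% and 1.83% of all genes called. After IR they went from 4 to 8 with DESeq2, 7 with the exact test and 7 in a fit of all 12 libraries, and from 1 to 4 with 1 library left out. In the interaction they went from 5 to 10 with DESeq2, 8 with library sizes alone and 8 with limma on log2(FPKM + 1), and from 2 to 8 with 1 library left out. The share of all genes called in the interaction went from 9.18% to 13.6, 10.9, 11.3 and 0.058% under the first 4 of these.

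With the replicate block, the counts of these genes were 3 with IR in WT, 6 between genotypes after IR and 8 in the interaction, where 6.16%, 6.75% and 1836 of 16741 genes were called over all genes. *Icam1* with IR in WT was 1.30 (adjusted p = 0.0103 by edgeR), and *Sele* there turned to −0.021. The block changed no other member's call. Outside the WT comparison the libraries share only a number: the correlations were 0.088, 0.318 and 0.277 with IR in kidneys labelled Tet2-/-, −0.145, −0.205 and 0.112 at baseline and 0.012, 0.217 and 0.375 after IR.

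The other changes of sign were these. *Vcam1* with IR in WT was −0.34 without WT baseline replicates 2 and 3. *Sele* with IR in WT ran from −0.20 to 0.47 with 1 library left out, negative without WT baseline replicate 1, WT IR replicate 1 or WT IR replicate 2. At baseline *Icam2* ran from −0.051 to 0.26, negative without WT baseline replicate 3, and was −0.14 without WT baseline replicates 2 and 3. *Selplg* at baseline ran from −0.67 to 0.25, positive without WT baseline replicate 1 or Tet2-/- baseline replicate 1 or 3. *Sele* after IR ran from −0.053 to 0.76, negative without Tet2-/- IR replicate 3. The *Icam1* interaction ran from −0.41 to 0.056, positive without WT IR replicate 2, and was 0.091 and 0.068 with limma on log2(FPKM + 1) and log2(FPKM + 0.1).

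Over all genes, DESeq2 called 1073 with IR in WT (376 by edgeR's quasi-likelihood test), 350 at baseline (against 2), 1747 after IR (against 996) and 2815 in the interaction (against 1536). Scaling by library sizes alone moved the median of all genes to 0.27 with IR in kidneys labelled Tet2-/- and 0.24 in the interaction (0.04 and 0.10 with TMM), with 2860 higher and 1397 lower calls (2078 and 1896) and 1129 and 700 (634 and 902).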
